A study of Caenorhabditis elegans with 4 samples.

Results

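Histone methyltransferases of the SET-domain family were followed as a set of 8 genes, taken by symbol and identifier from the count tables after earlier results of these data were known: met-2, set-25, set-32, set-6, set-9, set-26, met-1 and set-2. All 8 were found among the 46748 genes there. Poly(A) RNA had been sequenced from whole Caenorhabditis elegans larvae at the third larval stage (L3), with 2 libraries from met-2 set-25 double mutants (rWQS029 and rWQS045) and 2 libraries from wild type (N2; rWQS019 and rWQS042). The mutant strain was GW638, which carries met-2(n4256) and set-25(n5021), and the wild type was Bristol N2. Worms of both genotypes grew at 20°C on plates, and no age beyond the stage was given. The study used the mutant to ask what H3K9 methylation contributes to chromatin compartments and to gene expression in active and H3K27me3 domains, and the same libraries give the level of each methyltransferase gene with and without MET-2 and SET-25.

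The SET domain is the catalytic fold that transfers methyl groups to lysines, and each enzyme of the family has its own lysine preference. MET-2, related to mammalian SETDB1, and SET-25 methylate lysine 9 of histone H3 (H3K9), the mark of silent chromatin at the nuclear periphery. SET-32 acts with nuclear RNA interference in the germline to establish inherited silencing, and SET-6 is a predicted H3K9 methyltransferase. SET-9 and SET-26 are close paralogs with a PHD finger beside the SET domain, and SET-26 is known to limit lifespan. MET-1 deposits H3K36 methylation and SET-2, the worm SET1, is the catalytic subunit of COMPASS, the complex that methylates H3K4.

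The libraries held 36581352 and 48636767 counts in the mutant, against 22849521 and 56879896 in wild type. Levels are given as CPM, counts per 1000000 of the library total scaled with TMM factors of 0.917 to 1.08. A gene with 0 counts could still be at 0.131 CPM in the shallowest library (3 counts of its total, counting error only). Markers of muscle, intestine, hypodermis, neurons and germline were all counted. The 11 neuron markers summed to 809 and 685 CPM in the mutant, against 1116 and 941 CPM in wild type, and 0 were called by either tool. All 11 log2 fold changes were below 0 (median -0.44), against 7739 of all 15978 genes tested by edgeR. In 9 of the 11 both mutant libraries lay below both wild type libraries, against 21.1% of all tested genes. The 11 oocyte and eggshell markers summed to 116 and 182 CPM in the mutant, against 70.2 and 56.9 CPM in wild type. All 11 log2 fold changes were above 0, against 8239 of all 15978 genes tested by edgeR. DESeq2 called 1 of the 11 as higher and 0 as lower, against 2.49% and 0.821% of all genes. The 20 sperm markers summed to 3.45 and 4.82 CPM in the mutant, against 3.52 and 2.77 CPM in wild type, and 3 of them were at 0 in every library. The mutant libraries differed from each other: the summed level of 10 hypodermis markers was 1535 and 8163 CPM in rWQS029 and rWQS045, against 3868 and 4610 CPM in wild type. That sum was carried by the cuticle collagen genes rol-6, sqt-3, dpy-13 and dpy-7, singled out after their values were seen, while elt-1, elt-3 and grd-10 were lower in rWQS045 than in rWQS029. The 28 germline markers summed to 1493 and 2975 CPM in the mutant libraries, against 711 and 748 CPM in wild type. In whole animals, more cells of a type and more RNA per cell cannot be told apart.

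Of the 8 genes, set-9 differed most, at 9.35 times its wild type mean in the mutant. met-2 stood at 56.9% of its wild type mean, met-1 was level, and the other 5 lay between 72.8% and 182% of wild type. edgeR's quasi-likelihood test called 0 of the 8 at an adjusted p under 0.05, as it called 0 of all 15978 genes tested (0% higher and 0% lower). At an unadjusted p under 0.05 it had set-9 higher and met-2 lower, where the background was 6.2% of genes higher and 3.87% lower. DESeq2, which the study itself used, called 1 of the 8, set-9, as higher and 0 as lower, against a background of 2.49% of genes called higher and 0.821% called lower. The mutant libraries lay wholly above those of wild type for 4 of the 8 genes and wholly below for 2, against 22.1% and 21.1% of all tested genes, so that 6 of the 8 did not overlap, against 43.2% of all tested genes. In what follows "rose" refers to DESeq2's threshold alone. The p-values rest on a spread between libraries that may be technical, as separate cultures are not mentioned in the labels.

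**Figure D1:**
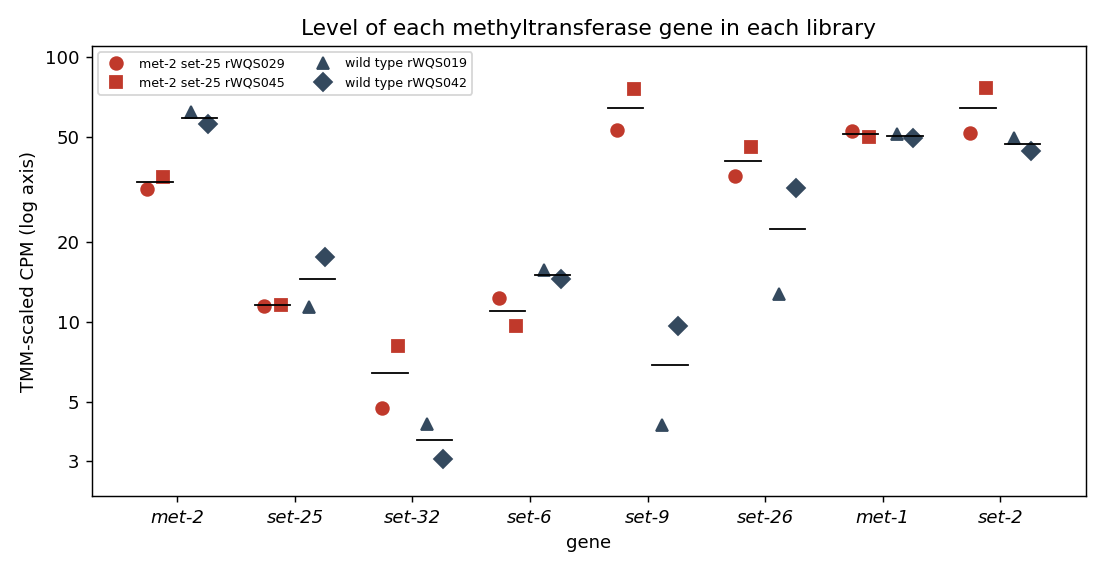
TMM-scaled CPM of each of the 8 genes (log axis), with 1 point per library, mutant libraries in red on the left of each gene and wild type libraries in dark blue on the right, and short lines at the mean of 2 libraries. set-9 was at 52.9 and 75.7 CPM in the mutant libraries, against 4.09 and 9.67 CPM in wild type, while met-1 lay between 49.6 and 52.7 CPM in all 4.

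The mutated genes themselves were still counted in the mutant. met-2 (WBGene00019883; chromosome III, 8375300 to 8380848, plus strand, in WBcel235) was counted at 31.8 and 35.3 CPM in the mutant libraries, against 62 and 55.9 CPM in wild type. Both mutant libraries lay below both wild type libraries, and the pairs were close, with a mean of 33.6 ± 2.52 CPM in the mutant and 58.9 ± 4.34 CPM in wild type (SD, n = 2 libraries each). The edgeR log2 fold change was -0.81 ± 0.221 (SE), with an unadjusted p of 0.015 and an adjusted p of 0.342, and DESeq2 gave an adjusted p of 0.272. The mutant libraries still held 1253 and 1576 met-2 counts. A count per gene covers the whole transcript, so it cannot tell whether the reads fell inside or outside the mutated part, and it is no check of the genotype.

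set-25 (WBGene00012802; chromosome III, 13283824 to 13293090, minus strand) was at 11.5 and 11.6 CPM in the mutant, against 11.4 and 17.6 CPM in wild type. The mutant libraries fell inside the wild type range, at the level of rWQS019, and only rWQS042 stood above them. Its log2 fold change was -0.33 ± 0.326 (SE, edgeR adjusted p = 0.768), and without rWQS042 it was 0.01. set-25 thus differed by less than the gap between the wild type libraries. It shares 3.04% of its exonic bases with genes of the opposite strand, 64 bases of them with unc-64, which encodes a syntaxin, and the library kit does not mark strand.

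The other H3K9 enzymes, set-32 with a higher and set-6 with a lower mean in the mutant, passed neither threshold. set-32 (WBGene00008062; chromosome I, 9519244 to 9521275) was at 4.74 and 8.12 CPM in the mutant, against 4.13 and 3.03 CPM in wild type. The genotypes did not overlap, but the gap between them was smaller than the gap between the mutant libraries, with a log2 fold change of 0.85 ± 0.425 (SE, edgeR adjusted p = 0.584). set-32 had only 95 to 362 counts per library. set-6 (WBGene00008206; chromosome X, 11970077 to 11974679) was at 12.3 and 9.62 CPM in the mutant, against 15.7 and 14.5 CPM in wild type. Here both mutant libraries were lower, by a log2 fold change of -0.46 ± 0.287 (SE, edgeR adjusted p = 0.649). Summed over met-2, set-25, set-32 and set-6, the H3K9 enzymes took 60.4 and 64.7 CPM in the mutant libraries, against 93.2 and 90.9 CPM in wild type. The most abundant of them in every library was met-2, itself a mutated gene. It held 31.8 and 35.3 CPM of the sum in the mutant, against 62 and 55.9 CPM in wild type.

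set-9 (WBGene00017482; chromosome IV, 4307896 to 4317140, plus strand) rose. It had 2085 and 3378 counts in the mutant libraries, against 94 and 552 in wild type, which made 52.9 and 75.7 CPM against 4.09 and 9.67 CPM. Both mutant libraries stood far above both wild type libraries, which themselves differed. The mean was 64.3 ± 16.2 CPM in the mutant and 6.88 ± 3.95 CPM in wild type (SD, n = 2 each). The log2 fold change was 3.21 ± 0.51 (SE) in edgeR, with an unadjusted p of 0.00163 and an adjusted p of 0.154, and 3.23 ± 0.555 in DESeq2, with an adjusted p of 9.95e-07. By unadjusted p it ranked 169 of 15978 genes in edgeR and 100 of 16562 in DESeq2, and 147 genes in all, itself included, had a log2 fold change as high. DESeq2 called it whichever library was left out, with log2 fold changes of 2.72 (without rWQS019) to 4.01 (without rWQS042) and an adjusted p of 0.0116 at most, whereas edgeR gave adjusted p-values of 0.061 to 0.718 in those fits.

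set-26 (WBGene00013106; chromosome IV, 16646791 to 16655883, minus strand), its paralog near the other end of the same chromosome, was at 35.6 and 45.6 CPM in the mutant, against 12.7 and 32 CPM in wild type. Both mutant libraries were above both wild type libraries, but rWQS042 came close to rWQS029 and the wild type libraries were further apart than the mutant ones. The log2 fold change was 0.86 ± 0.488 (SE, edgeR adjusted p = 0.623, DESeq2 adjusted p = 0.697), and in edgeR 0.34 without rWQS019 and 1.68 without rWQS042. Both paralogs were lower in rWQS019 than in rWQS042, by 1.15 for set-9 and 1.31 for set-26 on the log2(CPM + 0.5) scale. The other members differed between these libraries by 0.60 at most. Outside the members, the SET-domain genes set-16 and set-27, named after their values were seen, were also lower in rWQS019, by 1.28 and 1.22. They were at 38.9 and 13.7 CPM there, against 95.2 and 32.6 CPM in rWQS042. The median of rWQS042 minus rWQS019 over the other SET-domain genes was 0.04. The lower level in rWQS019 was thus not particular to set-9 and set-26, nor general in the family.

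Since reads of close paralogs can be split between them in the counting, the values of each are uncertain, and the split itself was examined. set-9 took 59.8% of the summed set-9 and set-26 counts in rWQS029 (95% Wilson interval 58.1% to 61.4%) and 62.4% in rWQS045 (61.1% to 63.7%). In wild type it took 24.4% in rWQS019 (20.4% to 28.9%) and 23.2% in rWQS042 (21.5% to 24.9%). These intervals cover counting error only. Although the summed level was 16.7 and 41.7 CPM in the wild type libraries, the share within each was nearly the same, and the genotypes were far apart. The share averaged 61.1 ± 1.86% in the mutant and 23.8 ± 0.871% in wild type (SD, n = 2 each), a difference of 37.3 percentage points. An exact permutation test gave a two-sided p of 0.333, the smallest that 2 libraries against 2 allow. Counted as 1 gene, a sum chosen after the data were seen, the pair was at 88.5 and 121 CPM in the mutant, against 16.7 and 41.7 CPM in wild type. The pair had a log2 fold change of 1.84 ± 0.499 in edgeR (adjusted p = 0.339) and of 1.85 ± 0.563 in DESeq2 (adjusted p = 0.0331). Without rWQS019 the pair was no longer called by DESeq2, with a log2 fold change of 1.32 and an adjusted p of 1. DESeq2 called it with each other library left out, and without rWQS042 the log2 fold change was 2.68 (DESeq2 adjusted p = 0.0102).

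**Figure D2:**
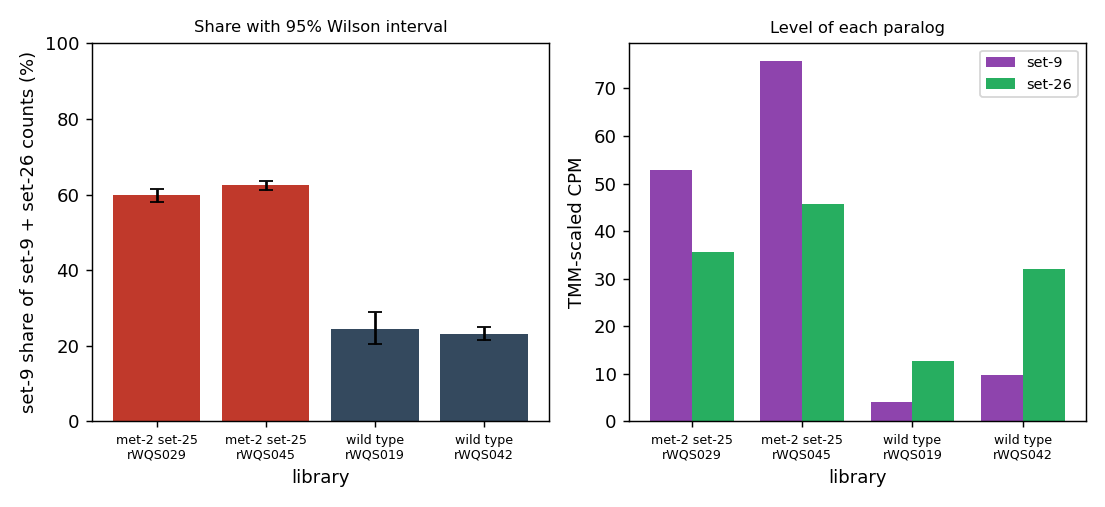
Left, set-9 counts as a percentage of set-9 plus set-26 counts in each library, with 95% Wilson intervals as error bars; right, TMM-scaled CPM of each paralog in each library. set-9 took 59.8% and 62.4% of the counts in the mutant libraries and 24.4% and 23.2% in wild type, so set-9 was the more abundant paralog in the mutant and set-26 in wild type.

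The remaining members write marks of active genes. met-1 (WBGene00016603; chromosome I, 4254197 to 4264699) was the steadiest of the 8, at 52.7 and 49.9 CPM in the mutant, against 51.1 and 49.6 CPM in wild type. Its ranges overlapped and its log2 fold change was 0.03 ± 0.21 (SE, edgeR adjusted p = 0.975). set-2 (WBGene00004782; chromosome III, 4922427 to 4930204) was at 51.5 and 76.6 CPM in the mutant, against 49.4 and 44.2 CPM in wild type. The mutant library rWQS029 was near the wild type level and rWQS045 well above it, and the log2 fold change was 0.45 ± 0.282 (SE, edgeR adjusted p = 0.646) and 0.14 without rWQS045.

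Levels were compared between genes as CPM per kb of exon, a scale on which gene length is taken out. In the mutant the order was set-9 at 11.8 ± 2.97 CPM per kb, set-2 at 11.7 ± 3.24, met-1 at 9.12 ± 0.357, met-2 at 8.12 ± 0.609, set-26 at 7.63 ± 1.33, set-6 at 4.64 ± 0.803, set-25 at 4.13 ± 0.0188 and set-32 at 3.89 ± 1.44 CPM per kb (SD, n = 2 each). set-9 and set-2 overlapped there, as did met-2 and set-26, and set-6, set-25 and set-32. In wild type the highest was met-2 at 14.3 ± 1.05 CPM per kb, followed by met-1 at 8.95 ± 0.185, set-2 at 8.54 ± 0.672, set-6 at 6.38 ± 0.361, set-25 at 5.18 ± 1.54, set-26 at 4.2 ± 2.58, set-32 at 2.17 ± 0.471 and set-9 at 1.26 ± 0.724 CPM per kb (SD, n = 2 each). met-2 stood clear of met-1, set-2 clear of set-6, and set-32 clear of set-9, whereas met-1 and set-2 overlapped, and so did the neighbours from set-6 to set-32. set-9 thus shared the top of the mutant order with set-2 and was lowest in the wild type order. It held 17.6% and 20.7% of the summed per-length level of the 8 genes in the mutant libraries, against 1.52% and 3.38% in wild type, and met-2 held 14% and 12.8%, against 30.3% and 25.8%. The sum itself was 55.1 and 67 CPM per kb in the mutant, against 49.5 and 52.4 CPM per kb in wild type.

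The rest of the SET-domain family was read from a list of 30 genes, of which 29 were in the tables and 26 were tested. DESeq2 called 3 of the 26 as higher, 0 as lower and 23 in neither direction, against 2.49% of all genes higher and 0.821% lower, and edgeR called 0. At an unadjusted p under 0.05 edgeR had 3 higher and 0 lower, against 6.2% and 3.87% of all genes. set-31 (chromosome V) was at 80.3 and 110 CPM in the mutant, against 20.7 and 21.6 CPM in wild type. It rose, with a log2 fold change of 2.17 ± 0.265 (SE, DESeq2 adjusted p = 1.36e-06, edgeR adjusted p = 0.0977). set-24 (chromosome II) was at 32.2 and 44 CPM in the mutant, against 8.18 and 8.92 CPM in wild type. It rose too, with a log2 fold change of 2.15 ± 0.284 (SE, DESeq2 adjusted p = 4.47e-06, edgeR adjusted p = 0.112). Wild type libraries were nearly equal for both genes, unlike for set-9. set-31 shares 4.17% of its exonic bases with dhs-22 on the opposite strand. Both calls were lost without rWQS019 (DESeq2 adjusted p = 0.127 for set-31 and 0.174 for set-24) and without rWQS042 (0.0635 and 0.0729), although the DESeq2 log2 fold changes in those fits, 2.13 and 2.23 for set-31 and 2.08 and 2.25 for set-24, were close to the 2.18 and 2.17 with all libraries. set-5 (chromosome V) was at 19.8 and 36.5 CPM in the mutant, against 9.66 and 9.18 CPM in wild type. It rose by 1.58 ± 0.378 on the log2 scale (SE, DESeq2 adjusted p = 0.026, edgeR adjusted p = 0.29), and of the fits with a library left out DESeq2 called it in the one without rWQS029.

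**Figure D3:**
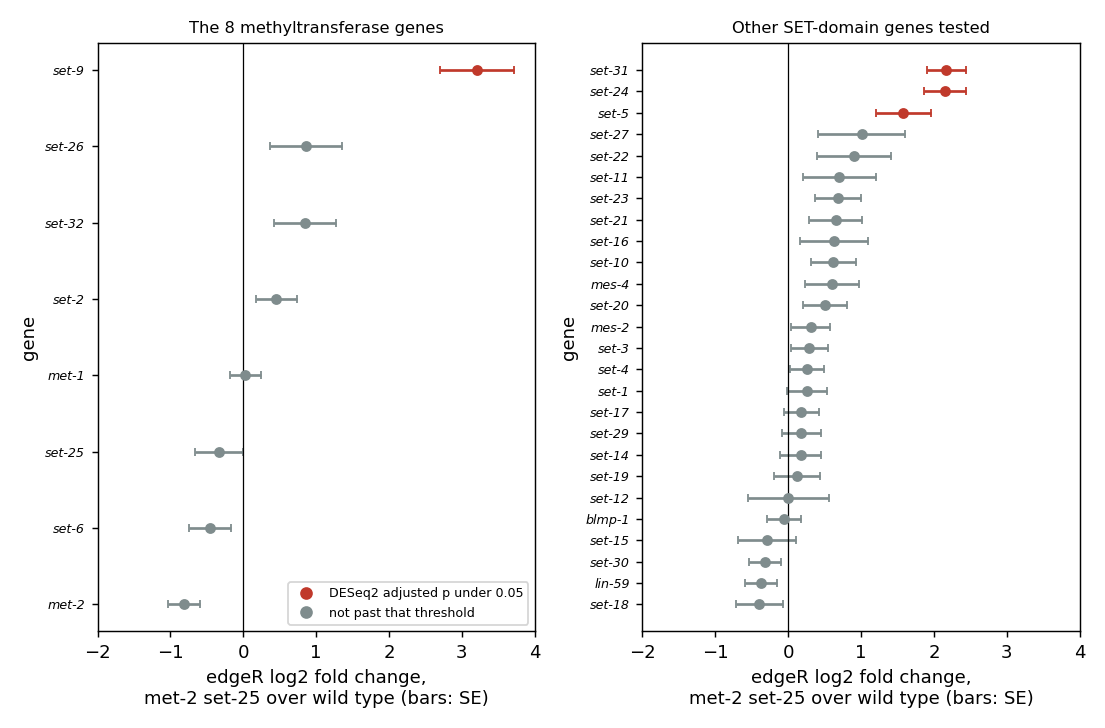
edgeR log2 fold change of the mutant over wild type with its standard error as bars, for the 8 genes on the left and for the 26 other SET-domain genes tested on the right, with genes past DESeq2's adjusted p of 0.05 in red. set-9 at 3.21 lay above every other gene shown, and set-31, set-24 and set-5 at 2.17, 2.15 and 1.58 were the others in red.

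At the lower end of the family were set-18 with a log2 fold change of -0.40, lin-59, related to fly ASH1, with -0.38, and set-30 with -0.32, none past either threshold. set-18 shares 18.5% of its exonic bases with T22A3.13, a noncoding RNA gene of the opposite strand that is not among the genes counted. The median log2 fold change of the 26 was 0.30, against 0.02 over all tested genes. Of the 26, 20 were above 0, against 8239 of all 15978 genes tested by edgeR. Of 10 subunits and partners of the COMPASS complex of SET-2, 0 were called by either tool. Over all genes DESeq2 called 2.49% higher and 0.821% lower, and edgeR 0%, so 0 of 10 is near that background. The log2 fold changes of the 10 ran from -0.08 to 0.69 with a median of 0.22. lin-65 and arle-14, the cofactors that work with MET-2, had 0.31 each (edgeR adjusted p = 0.768 and 0.748). Among 8 tested arginine and DOT1-type histone methyltransferases 0 were called, which is near the same background, with a median log2 fold change of 0.31. The highest of the 8 were dot-1.4 and dot-1.1, named after their values were seen. dot-1.4 was thinly counted and below a mean of 2 CPM. It had 9 and 15 counts in the mutant libraries, against 1 and 10 in wild type (edgeR adjusted p = 0.651). dot-1.1, an H3K79 methyltransferase, was at 60.1 and 78.7 CPM in the mutant, against 20.6 and 44.2 CPM in wild type, and had the lower wild type value in rWQS019, as did set-9 and set-26.

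set-9 is known as a gene of the germline, and germline markers moved in the same direction. Of the 28 markers 11 rose in DESeq2, 0 fell and 17 did not pass, against 2.49% of all genes called higher and 0.821% lower. In 25 of the 28 both mutant libraries lay above both wild type libraries, against 22.1% of all tested genes, and their median log2 fold change was 1.4. None of them was at 0 in all libraries. edgeR called 0 of the 28, with 15 higher at an unadjusted p under 0.05, against 6.2% of all tested genes. Of the 4 most abundant, glh-1, a P granule helicase, was at 482 and 1172 CPM in the mutant, against 204 and 208 CPM in wild type. pgl-1, another P granule gene, was at 263 and 398 CPM in the mutant, against 97.2 and 101 CPM in wild type. Both rose in DESeq2 (adjusted p = 0.00818 and 0.000837). csr-1, a germline Argonaute, and cgh-1, a germline RNA helicase, had log2 fold changes of 0.82 and 0.91 and passed neither threshold. On the log2(CPM + 0.5) scale the markers were 0.23 to 1.52 higher in rWQS045 than in rWQS029, with a median of 0.96, and set-9, set-24, set-31 and set-5, at 0.51, 0.45, 0.45 and 0.86, lay within that range. In rWQS042 minus rWQS019 the markers ran from -0.53 to 0.65 with a median of 0.04. set-24, set-31 and set-5 lay within that range too, at 0.12, 0.05 and -0.07, and set-9 lay above it at 1.15. The part of germline content in the rise of set-9, set-24, set-31 and set-5 was not tested.

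**Figure D4:**
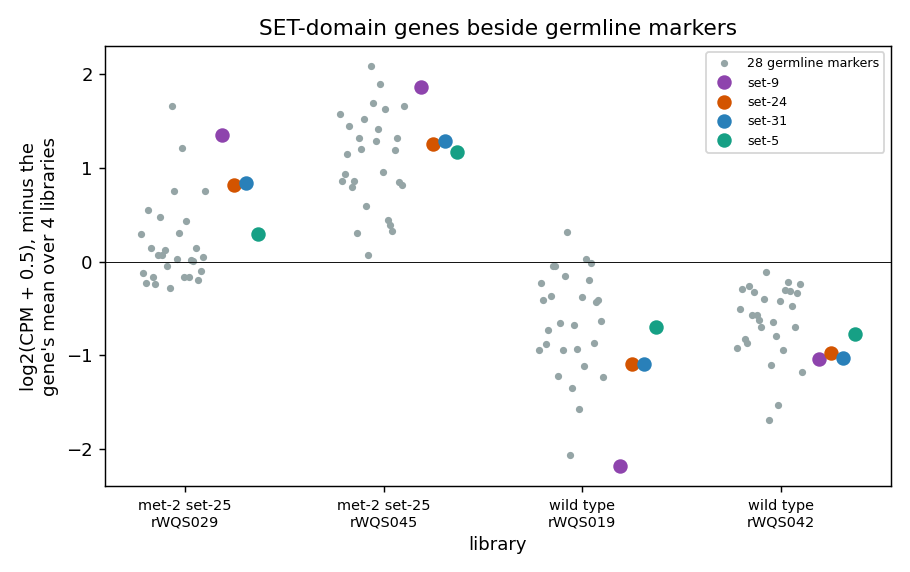
log2(CPM + 0.5) in each library minus the gene's own mean over the 4 libraries, for 28 germline markers (grey) and for set-9, set-24, set-31 and set-5 (colours). All 4 SET-domain genes lay above 0 in both mutant libraries and below 0 in both wild type libraries, and set-9 in rWQS019 was the lowest point shown.

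The members lie on 4 chromosomes, with set-9 and set-26 on chromosome IV, and their neighbours gave a further measurement. Of 32 entries for the 2 nearest tested protein-coding genes on each side of the 8 genes, 2 (6.25%) were called by DESeq2, and they were the genes directly downstream of set-9 and of set-26 on the same strand. Y24D9B.1 lies 218 bases past the annotated end of set-9 and had 163 and 189 counts in the mutant libraries, against 7 and 22 in wild type (4.13 and 4.24 CPM against 0.305 and 0.385 CPM; DESeq2 adjusted p = 3.84e-08, edgeR adjusted p = 0.0977). Y51H4A.13 lies 418 bases past the end of set-26 and was at 1.75 and 2.33 CPM in the mutant, against 0.087 and 0.0701 CPM in wild type, where it had 2 and 4 counts (DESeq2 adjusted p = 6.91e-06, edgeR adjusted p = 0.0977). Both were thinly counted beside the SET-domain genes they follow. Among the same entries for the 26 other tested SET-domain genes, 9 (8.65%) were called, and over all genes 2.49% were called higher and 0.821% lower. On the opposite side the nearest gene was lgc-22 for set-9, with a log2 fold change of 0.20 and mutant libraries as far apart as 27.3 and 433 CPM, and tsr-2 for set-26, with 0.22. The genes next to met-2 were lmbr-1 with 0.14 and R05D3.12 with -0.16, and neither passed a threshold. nxf-2, 68 bases from set-31, rose by 1.80 (DESeq2 adjusted p = 0.00061), and Y57A10A.2, 16663 bases from set-24, rose by 3.04 on the log2 scale (DESeq2 adjusted p = 5.06e-14). The other called entries lay beside set-11, set-12, set-15, set-23, mes-4 and blmp-1, which neither tool called. Beside set-5, which rose, the nearest genes were unc-112 with -0.10 and R08A2.5 with -1.79, and neither passed a threshold.

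Genes of similar pattern were looked for among 12270 genes with a mean of at least 2 CPM, by the distance between log2(CPM + 0.5) profiles centred on their mean over 4 libraries. The nearest to set-9 were sago-2, an Argonaute gene, at a distance of 0.43, a pseudogene of chromosome V (WBGene00014955) at 0.49, and maph-1.2 at 0.61. sago-2 was at 8.72 and 14.6 CPM in the mutant, against 0.653 and 1.94 CPM in wild type, so it too was lower in rWQS019 than in rWQS042. The nearest to met-2 were C03C10.7, klo-1 and tsp-17, at distances of 0.05 to 0.09, and the nearest to set-25 were C14C10.2, ram-2 and clec-4, at 0.08 to 0.10. The profiles are not scaled, so a gene with a large fold change has larger distances to its nearest genes, and the distances of set-9 are not comparable with those of met-2 and set-25. They rest on 4 libraries and describe those alone.

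**Figure D5:**
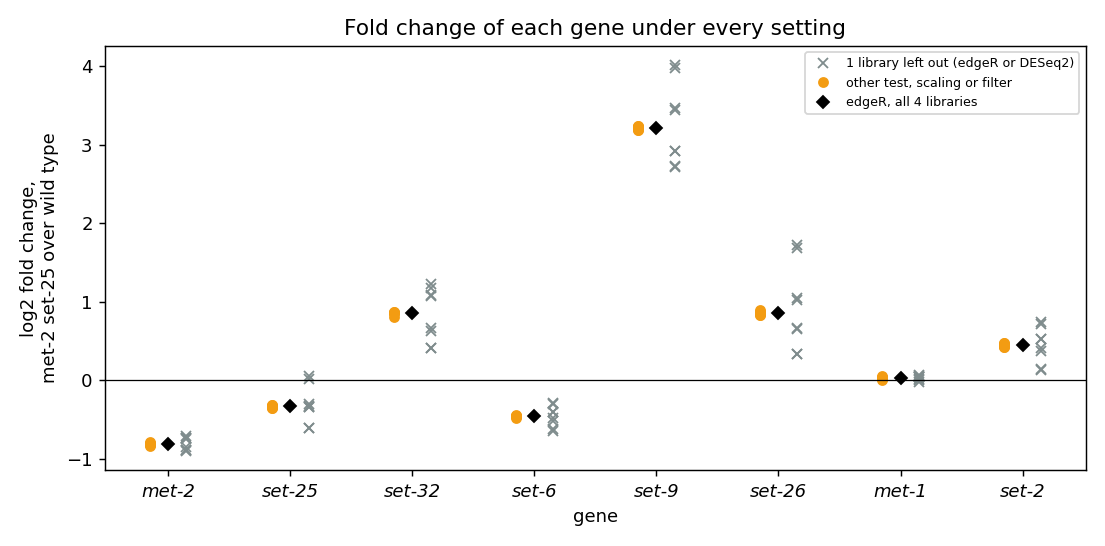
log2 fold change of the mutant over wild type for each gene, with edgeR on all 4 libraries as black diamonds, other tests, scalings and filters as orange circles, and fits with 1 library left out as grey crosses. set-9 stayed between 2.72 and 4.01 and met-2 between -0.90 and -0.71, while set-25 and met-1 took both signs.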

How the data were processed

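Raw gene counts were deposited by the authors for each library separately, without normalization. Per their methods, libraries were made with the TruSeq RNA Library Prep Kit and reads aligned with STAR to ce10 with annotation WS235. HTSeq is named there for counting and featureCounts in the submitters' processing notes; versions, and the handling of reads shared by paralogs, are not given in the sources used here. The columns are named by genotype and a library identifier, and that identifier names each library here. Columns left out numbered 0.

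Counts were tested with edgeR 4.0.16 (R 4.3.3) as the main test: filterByExpr, TMM, quasi-likelihood, genotype as the only term, two-sided, Benjamini-Hochberg over all 15978 genes, adjusted p under 0.05. SE is the log2 fold change over the root of the test's statistic. DESeq2 1.42.0, edgeR's likelihood ratio test, limma 3.58.1 (voom), other scalings and filters, and each library left out were alternatives. Scripts were tested on simulated data. Positions, exon lengths and overlaps come from Ensembl 115 (WBcel235), matched by WormBase identifier, and may differ from WS235 gene models. The members and lists were chosen with earlier results of these data known. All 8 members are named. Of the other methyltransferase lists, the text names DESeq2 or edgeR calls and the 3 highest and 3 lowest log2 fold changes at a mean of at least 2 CPM, with exceptions marked. The 4 most abundant germline markers, and for set-9, met-2 and set-25 the 3 genes nearest in pattern, are named too. Neighbouring genes were named after their values were seen. Of the list symbols, 3 had no entry in the tables.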

Additional observations from a re-analysis of the deposited data

How the results depend on the processing

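edgeR's quasi-likelihood test called 0 members and 0 genes; 1 member, set-9, was called by DESeq2, by edgeR's likelihood ratio test and by edgeR with no filter on low counts, where all calls numbered 548, 555 and 1223 (990 higher and 618 lower genes had an unadjusted p under 0.05 with all 4 libraries, and limma voom called 0). With 1 library left out edgeR called 0 to 228 genes and 0 members, and DESeq2, in fits chosen after the data were seen, 152, 208, 1424 and 928 genes (without rWQS019, rWQS042, rWQS029 and rWQS045) and 1 member each time. Without rWQS029 edgeR called 228 genes and without rWQS045 133, and set-24 and set-31 were among the 228. Among the 8 members, 7 log2 fold changes over all settings, each of set-9, newly passed the threshold, and 4 changed sign. The sign changes were set-25 without rWQS042 (0.01 in edgeR, 0.05 in DESeq2), and met-1 without rWQS029 (-0.02) and with a minimum mean of 5 CPM (-0.00). With a library left out set-25 ran from -0.61 to 0.05 and met-1 from -0.02 to 0.07. set-32 was below the minimum mean of 5, which was set on CPM without TMM scaling. The difference in set-9 share was 36 to 38.6 percentage points with a library left out. A genotype left with 1 library was assumed to vary like the other one. No paired analysis was possible because the columns carry no replicate number, so the planned replicate block was not run. Depth limits set-32 and set-9 most, which had fewer than 100 counts in rWQS019.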
